A study of Caenorhabditis elegans with 2 samples.

Results

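The genes mdl-1, mml-1, mxl-1, mxl-2, mxl-3 and hlh-30 are 6 of the 19973 protein-coding genes annotated on the Caenorhabditis elegans nuclear chromosomes, and together they encode Mad-like, Mondo-like and Max-like transcription factors and the TFEB relative HLH-30. They were chosen by name after the AMA-1 signals of these data were known, so their own signals are given as a description, with no test. A region was assigned to a gene when its summit lay between 500 bp upstream of the annotated 5' end and the 3' end. Chromatin of whole L1 larvae, from the wild-type strain N2, was precipitated with an antibody to AMA-1, which is the largest RNA polymerase II protein, and its DNA was read by sequencing. The 2 biological replicates formed 1 group. The labels describe both as pools of males and females of unknown age and give no further allele or treatment. The sex of the larvae was not examined here. A size range of 150 to 350 was recorded for both, and no label gives its unit. A control was used by the authors in making the lists and was not analysed here.

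MDL-1 is the worm Mad-like repressor and dimerises with the Max-like protein MXL-1. MML-1 is the Myc and Mondo-like activator and pairs with MXL-2, and both pairs influence worm lifespan. MXL-3 is a further Max-like repressor, which in the fed state opposes HLH-30, the worm counterpart of mammalian TFEB, at lysosomal lipase and autophagy genes. These proteins contact DNA at the E-box CACGTG. AMA-1 occupancy marks where RNA polymerase II sits on a gene, and does not by itself separate paused from elongating polymerase or tell which strand was transcribed.

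The sequences under the consensus peaks of 4 of the genes are shown because the descriptions of position and E-box content rest on them. They were read 5' to 3' on the coding strand of each gene from the RefSeq genome on WBcel235, the assembly also called ce11, and capitals mark CACGTG. The mdl-1 entries on the plus strand are chrX:6742486-6742644, which starts at the first coding base inside the upstream peak, and the whole intron peak at chrX:6742906-6743182, whose listed region begins in the preceding exon. The others are the central bases of each peak on the minus strand, at chrX:13350883-13351033 for mxl-3, chrIII:7372858-7373008 for mml-1 and chrIV:4028531-4028681 for hlh-30.
mdl-1 exon 1 peak: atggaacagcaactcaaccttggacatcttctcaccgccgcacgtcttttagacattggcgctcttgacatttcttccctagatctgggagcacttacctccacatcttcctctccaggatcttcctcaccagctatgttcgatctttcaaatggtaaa
mdl-1 intron peak: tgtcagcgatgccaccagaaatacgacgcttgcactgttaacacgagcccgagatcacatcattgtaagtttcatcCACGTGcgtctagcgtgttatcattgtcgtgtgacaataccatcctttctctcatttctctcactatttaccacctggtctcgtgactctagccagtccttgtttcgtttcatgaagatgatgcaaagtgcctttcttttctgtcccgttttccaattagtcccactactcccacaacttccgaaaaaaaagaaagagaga
mxl-3 upstream peak: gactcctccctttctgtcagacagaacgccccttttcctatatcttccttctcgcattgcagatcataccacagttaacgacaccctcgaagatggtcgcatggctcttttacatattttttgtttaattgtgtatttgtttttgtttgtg
mml-1 coding exon peak: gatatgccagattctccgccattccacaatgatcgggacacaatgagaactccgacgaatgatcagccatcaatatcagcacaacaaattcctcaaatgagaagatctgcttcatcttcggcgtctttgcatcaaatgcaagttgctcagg
hlh-30 intron peak: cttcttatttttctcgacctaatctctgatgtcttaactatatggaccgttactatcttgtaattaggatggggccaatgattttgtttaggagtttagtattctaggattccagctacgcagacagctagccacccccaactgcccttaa

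Of these 5 stretches, the mdl-1 intron peak is the one that holds CACGTG. Further E-boxes at these genes are shown with 30 bases on either side, or with 12 bases on either side in the 3' UTR of mxl-3. They lie at chrX:6742196-6742261 on the plus strand for mdl-1, at chrIII:7375067-7375132 on the minus strand for mml-1 and at chrX:13349761-13349790 on the minus strand for mxl-3. The mxl-3 copy lies inside the consensus peak of the 3' UTR, which is not among the 5 stretches.
mdl-1 upstream E-box: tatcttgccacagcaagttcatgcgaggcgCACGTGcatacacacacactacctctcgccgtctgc
mml-1 upstream E-box: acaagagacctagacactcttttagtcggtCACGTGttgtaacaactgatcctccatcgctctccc
mxl-3 3' UTR E-box: atacatgggtttCACGTGtactttaagaat

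The pooled list and each replicate list held 30000 regions, and the thresholded consensus held 1328. By the deposited labels the longer lists include background regions, so presence in one is weaker evidence than a consensus peak. Signal is the value the authors' peak caller gave each region. How it was scaled and how many reads lie behind it are not given in these sources. The depth is therefore unknown, and signals of separate lists were set side by side or compared by rank. The median signal was 9.56 in the pooled list, 6.42 in replicate 1 and 4.53 in replicate 2, and consensus signals ran from 34.3 to 803. All 1328 consensus regions were the 1328 highest of the pooled list. Of 13 tissue marker genes, 6 had a pooled region and 0 had a consensus peak, which allows a share of up to 23.1%. The highest was unc-54, a body wall muscle myosin, at 21.5, followed by the epidermal gene elt-3 at 21.1. The neuronal genes rab-3 and unc-119 had 13.8 and 10.9, with a region in both replicates. The pharyngeal gene myo-2 had 6.34 and the other epidermal marker, dpy-7, had 5.42, both without a region in replicate 1. The other body wall muscle marker, myo-3, and the intestinal markers elt-2 and ges-1 had a region in replicate 2 only. The yolk protein genes vit-2 and vit-6 and the germline genes glh-1 and pgl-1 had no region in any list. Markers of body wall muscle and of epidermis thus differed within the tissue, and no tissue pattern is read from the 13 genes.

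A consensus peak was present at 4 of the 6 genes, mdl-1, mxl-3, mml-1 and hlh-30, against 4.68% of all protein-coding genes. Both mdl-1 and mxl-3 had 2 consensus peaks, a number reached by 0.531% of all protein-coding genes. These 2 genes lie on X, where 2.78% of protein-coding genes had a consensus peak and 0.293% had at least 2. A pooled region was present at 5 of the 6 genes, against 42.8% of all, and a region in both replicates at 5 of 6, against 34.7%. Because the genes were picked with these signals in view, nothing is read from the excess over those shares. When replicate 2 was left out and the 1328 highest regions of replicate 1 stood in for the consensus, 2 of the 6 genes had a peak, mdl-1 and mxl-3, with the highest region of hlh-30 at rank 1363 and that of mml-1 at rank 2268. With replicate 1 left out the count was 4. The share of all protein-coding genes was not computed with either replicate left out. In whole larvae, polymerase in fewer cells and less polymerase per cell cannot be told apart.

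**Figure D1:**
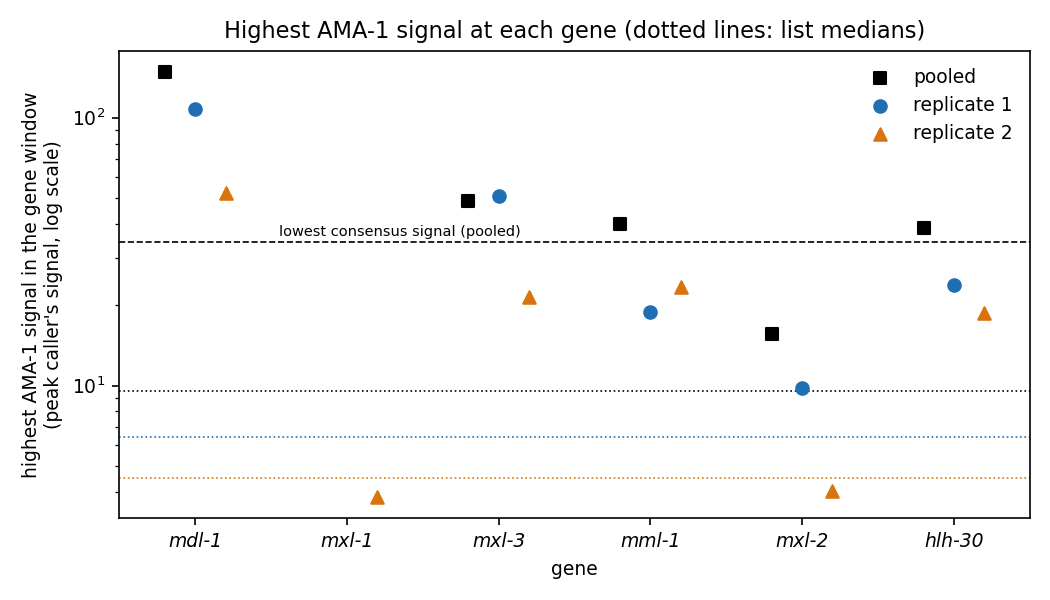
Highest AMA-1 signal in the window of each of the 6 genes, on a log scale, in the pooled list (squares), replicate 1 (circles) and replicate 2 (triangles). Dotted lines are the list medians (9.56, 6.42 and 4.53) and the dashed line is the lowest consensus signal, 34.3. The 3 values of mdl-1 lie above those of the other 5 genes in the same list, and mxl-1 has a single point, 3.85 in replicate 2.

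The Mad-like gene mdl-1 (WBGene00003163, chromosome X, 6742351 to 6743899, plus strand) had the highest signal of the 6, at 148 in the pooled list, 108 in replicate 1 and 52.2 in replicate 2. In the pooled list it ranked 27 among protein-coding genes of the genome, and no X-linked protein-coding gene was higher. Its highest signal exceeded that of 99.9% of protein-coding genes in the pooled list and in replicate 1, and of 99.8% in replicate 2. In every list the gene had exactly 2 regions, so its signal was gathered at 2 places in a window of 2049 bp.

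The first mdl-1 peak had its summit 152 bp inside the gene, in the first coding exon. Its signal was 114.8 in the pooled list, 70.0 in replicate 1 and 52.2 in replicate 2. The second had its summit at 706 bp, in an intron, with 148 in the pooled list, 108 in replicate 1 and 39.0 in replicate 2. The intron peak was thus the higher in replicate 1 and the exon peak the higher in replicate 2. The ratio of intron to exon peak was 1.29 in the pooled list, 1.54 in replicate 1 and 0.746 in replicate 2, so the order of the peaks is not resolved by these replicates. Both peaks ranked high in each replicate, at 108 and 39 of 30000 in replicate 1 and at 58 and 123 in replicate 2.

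A still higher region lay just outside mdl-1, with its summit 140 bp past the 3' end. It reached 256.5 in the pooled list (rank 13), 157 in replicate 1 and 112 in replicate 2. By the window rule it belongs to the non-coding RNA genes R03E9.10, on the opposite strand, and R03E9.7, and it was singled out after its values were seen. Another consensus peak outside the window, at -1161 bp from the 5' end, had 47.3 in the pooled list and lay in the window of the non-coding RNA gene R03E9.9. The listed region past the 3' end overlaps the end of mdl-1, and since strand was not measured, polymerase leaving mdl-1 and polymerase on these RNA genes cannot be told apart.

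The MXL-1 gene, mxl-1 (WBGene00003509, chromosome V, 11244839 to 11245926, plus strand), encodes the dimerisation partner of MDL-1 and stood at the other end of the range. It had no region in the pooled list, in the consensus or in replicate 1. Replicate 2 held 1 region, at position -394 bp from the 5' end, with a signal of 3.85 and rank 18297 of 30000. That signal is below the replicate's median of 4.53, and the summit also lies in the window of pgap-1. Of the 31-base words in the mxl-1 window 98.8% are unique in the genome. The MDL-1 and MXL-1 genes were thus the highest and the lowest of the 6 in the pooled list and in both replicates.

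The Max-like gene mxl-3 (WBGene00003511, chromosome X, 13349639 to 13350804, minus strand) ranked next after mdl-1 in the pooled list. Its highest signal was 48.9 in the pooled list, 50.95 in replicate 1 and 21.4 in replicate 2, above 97.9%, 99.3% and 98.1% of protein-coding genes. Its 5 pooled regions in a window of 1666 bp made 3.00 per kb, the highest density of the 6 genes. They ran from the upstream sequence to the 3' UTR.

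One mxl-3 consensus peak lay upstream, at position -154 bp from the 5' end, with 48.9 in the pooled list, 30.3 in replicate 1 and 21.4 in replicate 2. It ranked 781 and 576 in replicates 1 and 2, and its summit is also in the window of the non-coding RNA gene C49F8.5. The other lay in the 3' UTR, 1000 bp inside the gene, with 45.4 in the pooled list and 50.95 in replicate 1. Replicate 2 listed no summit in the 3' UTR. Its overlapping region of 17.5 had its summit 185 bp away in the last coding exon. That region was also counted at the pooled coding region at 789 bp, whose summit was 26 bp away. The upstream peak therefore stood at like ranks in both replicates. The 3' peak ranked 220 in replicate 1, and the overlapping coding region of replicate 2 ranked 1030. Replicate 1 also listed a coding region at 388 bp with 25.8, for which replicate 2 had none, and replicate 2 listed an upstream region at -377 bp with 20.2, where replicate 1 had no summit of its own.

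A further consensus peak lay 85 bp past the 3' end of mxl-3, outside its window, and was looked up after the windows had been read. It had 75.6 in the pooled list (rank 203), 61.7 in replicate 1 and 14.5 in replicate 2, and no annotated gene window held its summit. Both mdl-1 and mxl-3 thus had a consensus peak just past the 3' end that was higher in the pooled list than any peak of their own windows. At mdl-1 this order held in both replicates. At mxl-3 it held in replicate 1, and in replicate 2 the region past the 3' end was lower than those inside. The genes mml-1 and hlh-30 also had a pooled region past the 3' end, 335 and 219 bp away, looked up in the same way. These had 28.7 and 31.1, were not consensus peaks and were lower than the consensus peak of each window. In replicate 1 the mml-1 region had 22.5, above every region of its window, and in replicate 2 it had 8.56.

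**Figure D2:**
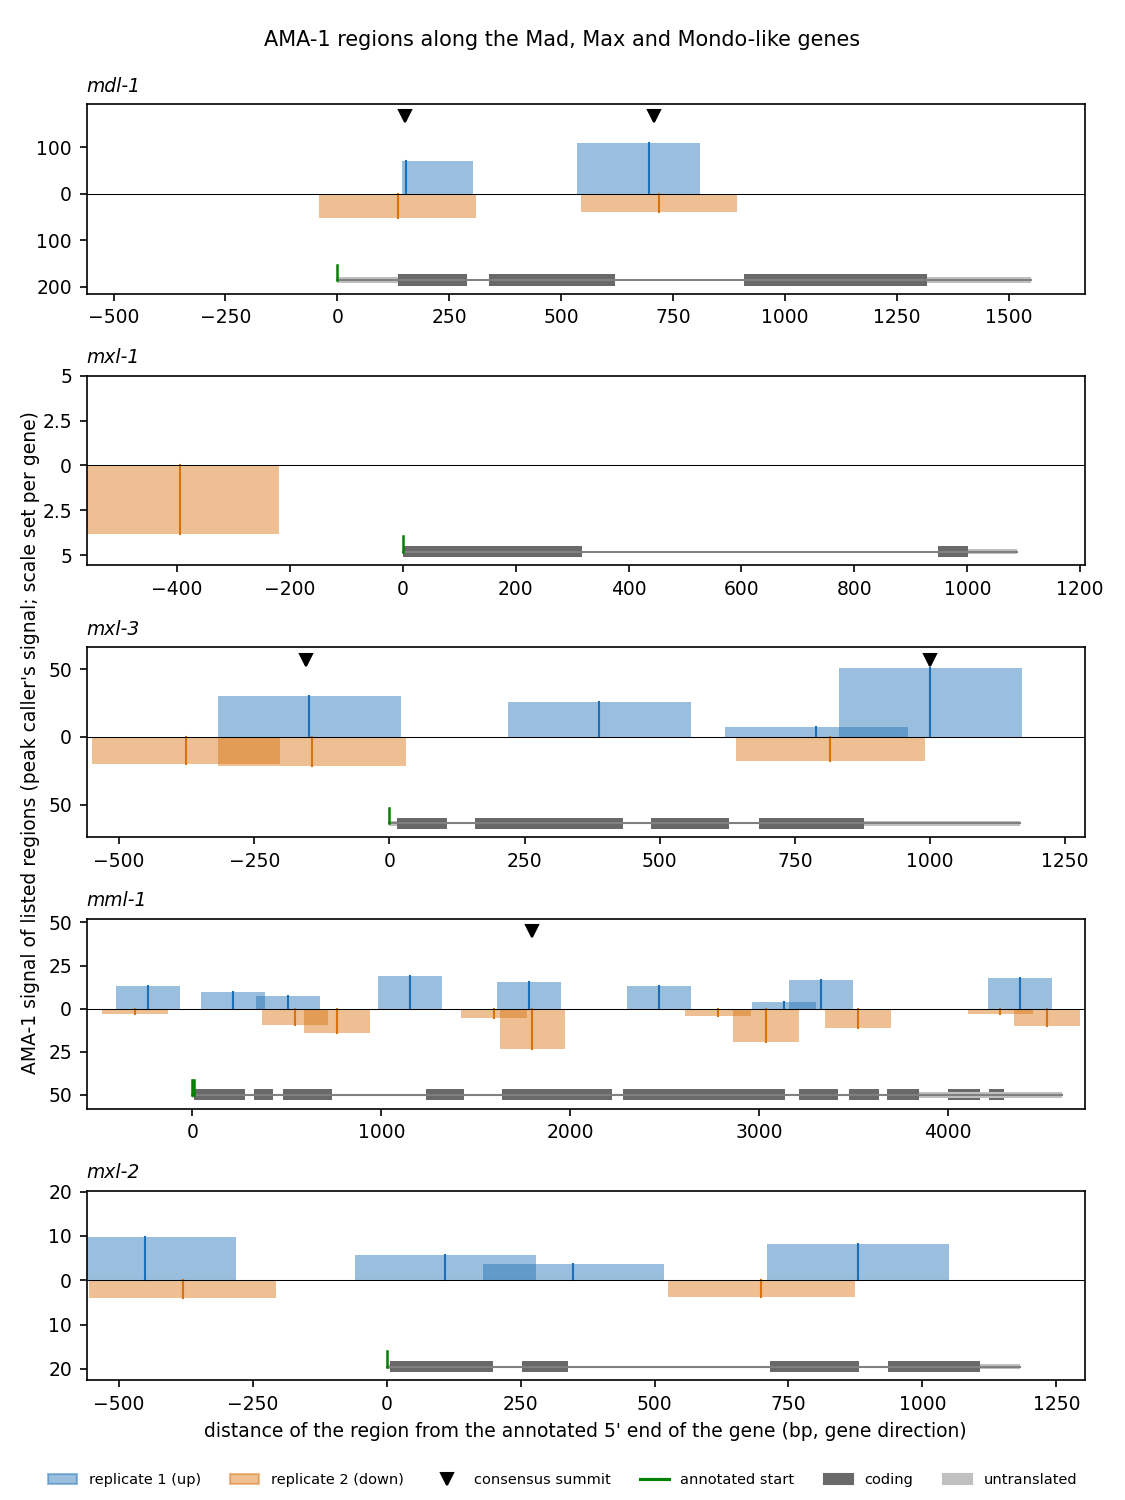
AMA-1 regions along the 5 shorter genes, with distance from the annotated 5' end in bp in the direction of the gene. Bars up are replicate 1 and bars down are replicate 2, their height the signal on a scale set per gene, lines inside bars are summits, and triangles are consensus summits. The mdl-1 panel shows 2 regions in each replicate, and the mml-1 panel shows 9 in replicate 1 and 10 in replicate 2.

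The Mondo-like gene mml-1 (WBGene00003378, chromosome III, 7370130 to 7374731, minus strand) had 9 pooled regions spread over its length. Its highest signal was 40.0 in the pooled list, 18.7 in replicate 1 and 23.2 in replicate 2, above 96.7%, 92.5% and 98.5% of protein-coding genes. The single consensus peak of its window lay far from the 5' end, at 1798 bp in a coding exon. There the signal was 15.7 in replicate 1 (rank 3346) and 23.2 in replicate 2 (rank 457). The larger rank is 7.32 times the smaller, and 18.4% of the consensus peaks with a region in both replicates differed as much or more in rank. In replicate 1 the highest region was instead the intron region at 1152 bp, with 18.7, which had no overlapping region in replicate 2.

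A higher consensus peak lay upstream of the mml-1 window, at -905 bp from the 5' end and in no annotated gene window, and was looked up after the windows had been read. It had 51.1 in the pooled list (rank 539), and the nearest summits in the replicates had 33.02 in replicate 1 and 18.95 in replicate 2. In the pooled list and in replicate 1 it was thus higher than every region inside the window, and in replicate 2 it was lower than the coding exon peak.

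Other mml-1 regions also differed between replicates, in both directions. The region at 3055 bp, in a coding exon, had 11.7 in the pooled list, 3.66 in replicate 1 (rank 26553) and 19.4 in replicate 2 (rank 773). The upstream region at -234 bp had 17.4 in the pooled list, 13.2 in replicate 1 (rank 4656) and 2.88 in replicate 2 (rank 24486). By rank of the region with the nearest summit, the coding region was thus far higher in replicate 2 and the upstream region in replicate 1. Another replicate 1 region that overlapped the coding region, with its summit at 3328 bp, had 16.8 (rank 2887). The region in the 3' UTR, with 19.3 in the pooled list, ranked 2495 in replicate 1. In replicate 2 the overlapping region with the nearest summit, in a coding exon, ranked 22565. Another overlapping region of replicate 2, with its summit in the 3' UTR, had 9.83 and ranked 4033. Of the 9 pooled regions 8 were overlapped by a region in both replicates, and 1 also served the non-coding RNA gene T20B12.11. The replicate 2 region of 9.49 was counted at both 238 and 586 bp.

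The MXL-2 gene, mxl-2 (WBGene00003510, chromosome III, 186949 to 188131, minus strand), encodes the partner of MML-1 and had no consensus peak. Its highest signal was 15.6 in the pooled list, 9.81 in replicate 1 and 4.03 in replicate 2, above 81.8%, 79.5% and 67.7% of protein-coding genes. That region lay upstream, at -452 bp in the pooled list, in a window shared with the ubiquitin-conjugating enzyme gene ubc-20. Inside mxl-2 the pooled signals were 7.89, 6.78 and 10.9, in introns, of which the last exceeded the pooled median of 9.56. Over genes with any pooled region the median highest signal was 13.7, close to the 15.6 of mxl-2. In each heterodimer pair the gene of the Max-like partner had the lower highest signal in every list, mxl-1 below mdl-1 and mxl-2 below mml-1. The highest signal was not adjusted for window length, which was 5102 bp at mml-1 and 1683 bp at mxl-2. By pooled regions per kb mxl-1 was again below mdl-1 (0 against 0.976), while mxl-2 was above mml-1 (2.38 against 1.76).

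The TFEB relative hlh-30 (WBGene00020930, chromosome IV, 4014793 to 4034951, minus strand) is the longest of the 6, with 13 annotated transcripts and 10 transcript starts over 20159 bp. Its window held 32 pooled regions, 25 in replicate 1 and 31 in replicate 2. Per kb this was 1.55 pooled regions, against 1.76 at mml-1 and 3.00 at mxl-3, so hlh-30 had the most regions of the 6 genes without the highest density. Of the 32 pooled regions 27 had their summit in an intron, 4 in a coding exon and 1 in a 5' UTR. Regions of both replicates overlapped 22, of replicate 1 alone 5, of replicate 2 alone 4, and of neither 1. A replicate region could be counted more than once, as the replicate 1 region of 5.53 was at 5224 and 5437 bp. Their median pooled signal was 9.81, near the list median of 9.56, and 17 of 32 lay above it. Of the pooled summits, 1 also lay in the window of the non-coding RNA gene F35F11.4, and those at 14970 and 15243 bp in that of the non-coding RNA gene W02C12.4.

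One region of the hlh-30 window stood above the others in it. Its summit lay in an intron 6345 bp from the outermost 5' end, at position -479 bp from an internal transcript start. It had 38.7 in the pooled list (rank 1020), 23.7 in replicate 1 (rank 1363) and 18.6 in replicate 2 (rank 861), and it was the highest of the gene in all 3. The next pooled region inside the window reached 16.4. Outside the window, 219 bp past the 3' end, a pooled region had 31.1 (rank 1661). There replicate 1 had 21.4 and replicate 2 had 8.76, and these values were looked up after the windows had been read. Among the 196 protein-coding genes with a window at least as long as that of hlh-30, 11.7% had a consensus peak.

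The transcript starts of hlh-30 fall into 5 groups. Within 500 bp of the outermost starts, used by 3 transcripts, the highest signal was 7.58 in the pooled list, 4.54 in replicate 1 and 2.64 in replicate 2, each below its list's median. At the start 6824 bp inside the gene, used by 2 transcripts, it was the consensus peak with 38.7, 23.7 and 18.6 in the pooled list, replicate 1 and replicate 2. The start at 7888 bp had 9.89, 5.38 and 11.0 in the same lists. The starts from 15907 bp had 12.9, 8.37 and 6.79, and those from 16544 bp had 12.7 in the pooled list, none in replicate 1 and 10.6 in replicate 2. The internal start group with the consensus peak was the highest of the 5 in the pooled list and in both replicates. The outermost group was the lowest in the pooled list and in replicate 2. The consensus summit lay at -479 bp from its start, near the 500 bp limit. The region at that start, with its summit at 13 bp, had 11.5 in the pooled list and 8.79 in replicate 1. No replicate 2 region overlapped it. Its 11.5 was below the 12.9 and 12.7 farther inside, and its 8.79 was above the 8.37. The first place in the pooled list and in replicate 2 thus rests on the consensus peak.

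**Figure D3:**
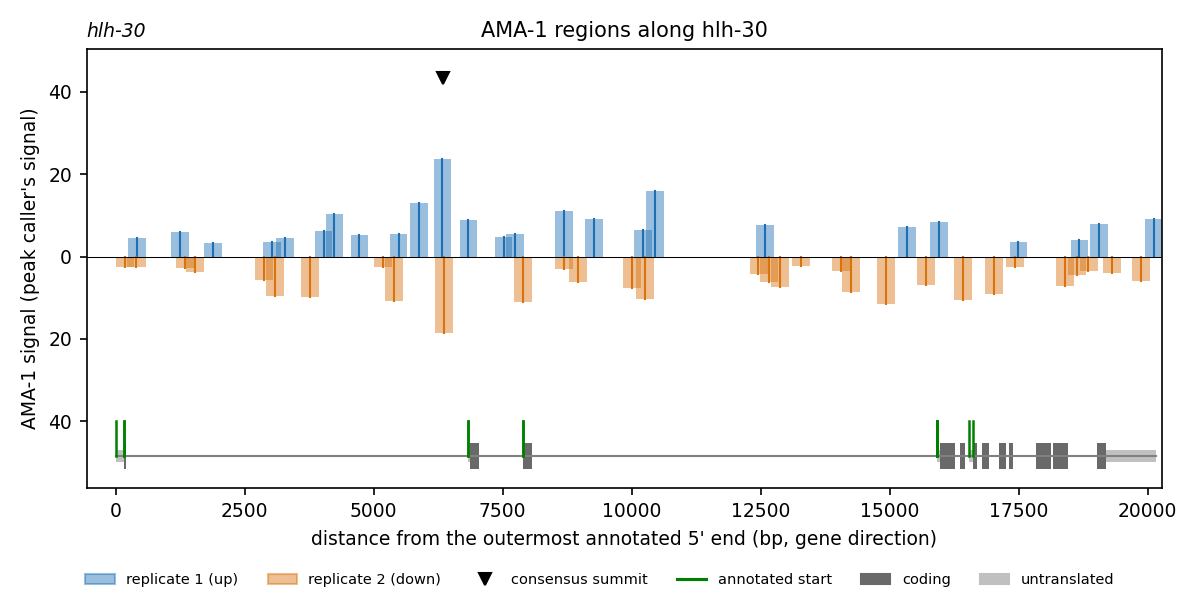
AMA-1 regions along hlh-30, with distance from the outermost annotated 5' end in bp. Bars up are replicate 1 and bars down are replicate 2, their height the signal, and green marks are annotated transcript starts. The tallest bar of each replicate, 23.7 and 18.6, stands at the consensus summit, upstream of the start at 6824 bp.

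Ordered by highest pooled signal the genes ran mdl-1, mxl-3, mml-1, hlh-30, mxl-2 and mxl-1. In both replicates mdl-1 was again first, and mxl-2 and mxl-1 again last. The genes between them changed places, since mml-1 (18.7) was lower than hlh-30 (23.7) in replicate 1 and higher in replicate 2 (23.2 against 18.6), where it also exceeded mxl-3 (21.4). Consensus peaks of mxl-3, mml-1 and hlh-30 lay between 38.7 and 48.9, below or just above the consensus median of 47.0. Over 1301 consensus peaks with a region in both replicates the median ratio of larger to smaller rank was 2.59. The 6 peaks of these genes had ratios of 1.86 and 3.15 at mdl-1, 1.36 and 4.68 at mxl-3, 7.32 at mml-1 and 1.58 at hlh-30. The 4.68 sets the 3' UTR peak of mxl-3 against a replicate 2 region whose summit lay in a coding exon.

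The genes nearest in signal over both replicates were found by distance in log2 highest signal among 6935 genes. For mdl-1 they were W09D6.5 (102 in replicate 1, 48.3 in replicate 2), F09A5.3 (97.5 and 54.1) and F01D5.10 (126 and 51.4). For mxl-3 they were pyc-1, the pyruvate carboxylase gene, and nlp-33 and T19C4.24, which share their values. For mml-1 they were F53E4.1, osm-6, a gene of ciliary transport, and ints-8, an Integrator subunit gene. For hlh-30 they were seip-1, the seipin gene, nhr-286 and C27H5.2. With 2 replicates this likeness describes level only.

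The E-box CACGTG, which reads the same on both strands, occurred within 150 bp of the summit in 6 of the 52 pooled regions of these genes, 11.5%, against 6.61% of all 30000 pooled regions. It occurred in 2 of their 6 consensus peaks, against 10.5% of all consensus peaks. The longer palindrome TCACGTGA, which contains CACGTG, occurred in 0 of 52, which allows up to 5.77%, against 0.683% of all. The general E-box CANNTG, which also contains CACGTG, occurred in 39 of 52, 75%, against 70.8% of all. Within 500 bp upstream, 2 of the 6 genes held CACGTG, mdl-1 and mml-1, against 8.61% of protein-coding genes. Counts this small describe these windows only.

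The CACGTG of the mdl-1 intron lay 631 bp inside the gene and 72.5 bp from the pooled summit of the intron peak, inside the listed region in every list. The upstream copy at mdl-1, at -125 bp, lay in no listed region. At mml-1 the upstream copy, at -371 bp, lay inside the upstream region in the pooled list and in both replicates, the region with signals of 17.4, 13.2 and 2.88. At mxl-3 the copy in the 3' UTR lay 28.5 bp from the pooled summit of the 3' peak, inside the region in replicate 1 and outside it in replicate 2. The 3 copies in hlh-30, 2848, 8863 and 18345 bp inside the gene, lay near pooled summits with signals of 6.67, 15.9 and 5.54 and not at its consensus peak. Each of these copies lay inside a region of the pooled list and of replicate 2, and in no region of replicate 1. The windows of mxl-1 and mxl-2 held no CACGTG.

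Other genes of the same families and pathways are given for scale. Over all protein-coding genes 4.68% had a consensus peak and 34.7% had a region in both replicates. Of 35 other bHLH genes 1 had a consensus peak, hif-1, the hypoxia-inducible factor gene, at 40.2, and 7 had a region in both replicates. Of 28 autophagy genes 8 had a consensus peak, led by epg-9 (118.8) and the Atg8 relatives lgg-2 (114) and lgg-1 (99.5), and 23 had a region in both replicates. Of the 17 lysosomal lipase and membrane genes 0 had a consensus peak, which allows up to 17.6%, and 7 had a region in both replicates. Both lists include known targets of HLH-30, and the difference between them was not tested. The highest lysosomal gene was ctns-1, a cystine transporter gene, at 26.8.

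Of 11 other longevity transcription factor genes 1 had a consensus peak, nhr-49, a nuclear receptor gene of fat metabolism, at 68.0, and all 11 had a region in both replicates. The median window was 5530 bp in the longevity list, 3574 bp in the autophagy list, 3193 bp in the lysosomal list and 2052 bp in the other bHLH list. It was 1866 bp for the 6 genes and 2527 bp over all protein-coding genes. The counts were not adjusted for window length. The median gene exceeded 96.5% of protein-coding genes among the 6, against 89.3% in the autophagy list, 88.7% in the longevity list and 64.0% in the lysosomal list. It was 0 in the other bHLH list and over all protein-coding genes, since most had no region. The mdl-1 pooled signal of 148 was above every gene of these 4 lists. Because the 6 genes were chosen with these signals known, nothing is read from their place above the lists.

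**Figure D4:**
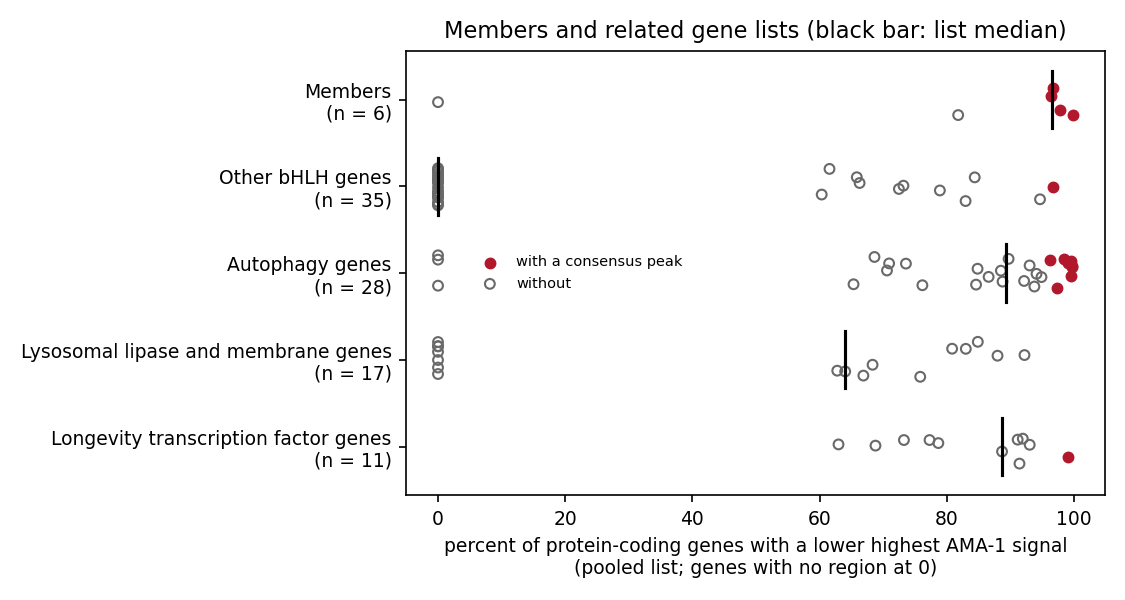
Percent of protein-coding genes with a lower highest pooled AMA-1 signal, for the 6 genes and 4 related lists, with genes that have no region at 0. Each circle is a gene, filled where it had a consensus peak, and black bars are list medians. The median was 96.5 for the 6 genes, which were chosen with these signals known, and 0 for the 35 other bHLH genes.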

How the data were processed

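AMA-1 chromatin immunoprecipitation sequencing of 2 biological replicates was analysed from the deposited ce11 region lists. The signal of each region, in the seventh column, is the value the authors' peak caller gave it. Per the text files deposited with each sample, a replicate's list derives from its alignments and a control, the pooled list from both alignments, and the consensus from an irreproducible discovery rate (IDR) analysis. The sources used here name no peak caller or version, and give no IDR threshold, control preparation or depth. Lists on ce10 were not used, and 1 further gene list is not reported here. Genes came from Ensembl release 115 on WBcel235, without mitochondrial genes. A summit could serve several genes, and a region of a replicate matched a pooled region by at least 1 shared base. The genes, gene lists and alternatives were chosen with earlier results of these data known.

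Besides the 6 genes, the text names genes that share a summit with them, up to 3 of the highest of each list and the 3 nearest in replicate signal, and says where a gene was added later. No test was made, because there is 1 group. Spread between replicates is given by printing both. Alternatives were other windows, assignment rules, list thresholds, each replicate alone, percentiles among genes with a pooled region and percentiles of summed signal per kb. Shares for a count of 0 use a limit of 3 counts and cover counting only. Scripts were tested on simulated data and used Python 3.11.15, numpy 2.4.6, pandas 2.3.3 and matplotlib 3.10.9.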

Additional observations from a re-analysis of the deposited data

How the results depend on the processing

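The count of 4 genes with a consensus peak was 4 with windows of 250 and 1000 bp upstream, with any overlap of 1 base and with summits assigned by the nearest 5' end alone. It was 3 with summits within 500 bp of a transcript start. It was 2 for consensus peaks above their median signal, and ran from 2 without replicate 2 to 4 without replicate 1. The 52 pooled regions became 17 within 500 bp of a transcript start, where regions farther inside the genes do not count, and 39 to 56 under the other alternatives. The count of genes with a region in both replicates ran from 4 to 5. Shares of all protein-coding genes were not computed for these alternatives, so nothing is read from the counts beyond their change. The share of protein-coding genes that each gene exceeded in highest signal ran from 99.8% to 99.9% at mdl-1, 97.4% to 99.3% at mxl-3, 87.6% to 98.5% at mml-1, 95.3% to 97.3% at hlh-30, 67.7% to 85.6% at mxl-2 and 0% to 66.6% at mxl-1 over these windows, assignments and single replicates. Among genes with a pooled region alone it was 99.7%, 95.0%, 92.2%, 91.6% and 57.5% for the first 5 in that order. By summed signal per kb it was 99.9%, 99.8%, 97.3%, 91.3% and 95.1%. No paired analysis was possible because there is 1 group. With the number of reads unknown, the absence of a region at mxl-1 says only that none was listed among 30000.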
